A study of Homo sapiens with 18 samples.

Results

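The 9 genes described here are the receptors EGFR, ERBB2, ERBB3 and MET and the ligands AREG, EREG, HBEGF, TGFA and NRG1. They were taken by symbol from a table of 26668 genes, and each symbol had a row in it. The study asked how loss of OFD1, a protein of the centrosome and of centriolar satellites, changes gene expression in pancreatic cancer cells. PANC-1, MIA PaCa-2 and PaTu 8988T are established human pancreatic cancer cell lines, and each gave 3 control and 3 OFD1 knockdown (shOFD1) RNA-seq libraries, 18 in all. In the knockdown groups doxycycline (Dox) switched on a Tet-On short hairpin RNA against OFD1, and cells were collected 72 h later. The hairpin used for sequencing is not named in the sources used here.

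The control groups are less clearly described. Their titles name a control hairpin, their genotype is given as wild type and their treatment as none, whereas the methods of the study compare DMSO with Dox in cells carrying the OFD1 hairpin. The design text places controls on day 0. Dox was given to every knockdown group and to no control group, so the effects of Dox, of time in culture and of OFD1 loss cannot be told apart. The titles place all 6 PaTu libraries in PaTu 8988T, although the cell line fields of some PaTu replicates carry another number after the name. Nothing in the labels says that the 3 libraries of a group came from separate cultures, so p-values measure the spread between libraries, which may be technical.

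EGFR, ERBB2 and ERBB3 are receptor tyrosine kinases of one family. AREG, EREG, HBEGF and TGFA are made as membrane proteins, are cut from the cell surface by ADAM proteases, and bind EGFR (HBEGF and EREG also bind ERBB4), while NRG1 binds ERBB3. ERBB2 has no known ligand and works as a partner in heterodimers, and MET is the receptor of hepatocyte growth factor (HGF). In pancreatic cancer cells, signals from these receptors feed into the ERK and PI3K pathways.

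Library totals were even, with 32486479 to 39797537 reads counted on genes per library. OFD1 itself fell in each line, from 5.12 to 5.67 FPKM in control libraries to 2.27 to 2.80 in PANC-1, from 2.27 to 3.20 to 1.74 to 1.97 in MIA PaCa-2, and from 1.93 to 2.14 to 0.854 to 0.986 in PaTu 8988T. The control and knockdown libraries did not overlap in any line. The log2 fold change of OFD1 was -1.07 ± 0.090 (SE) in PANC-1 and -1.10 ± 0.10 in PaTu 8988T. It was smaller in MIA PaCa-2, at -0.61 ± 0.16 with all 6 libraries (adjusted p = 0.0232, limma), a fold change of 0.66. The part of this in the differences between lines below was not tested. MIA PaCa-2 control replicate 2 stood apart from the other libraries. Its OFD1 level was 2.27 FPKM, against 3.09 and 3.20 in control replicates 1 and 3, and the OFD1 change without this library is not given. The SD across genes of its log2 difference from the other controls of its line was 0.52. It was 0.28 for the other 2 controls and 0.12 to 0.18 in the 15 libraries outside this group. Fitted changes in MIA PaCa-2, other than those of OFD1, ADAM10, ADAM17, RHBDF2, DDR1 and AXL, are therefore given with and without control replicate 2. The keratins KRT8 and KRT18 were at 316 FPKM or more in all 18 libraries, whereas EPCAM and CDH1 were near 0 in MIA PaCa-2, and KRT19 and CDH1 were near 0 in PaTu 8988T. Of 8 markers of other cell types, 2 reached a mean of 1 FPKM in PANC-1 (CD68 and COL1A1), 2 in MIA PaCa-2 (CD68 and PTPRC) and 1 in PaTu 8988T (CD68). The T cell gene CD3E was at 0 in all 18 libraries, and the fibroblast gene DCN was at 0.00374 FPKM or less. The summed level of the 8 markers fell in PANC-1 from 57.4 to 64.4 FPKM in the controls to 39.5 to 42.0 after knockdown. In MIA PaCa-2 it rose from 49.4 to 67.5 FPKM to 73.3 to 77.1. In PaTu 8988T it moved from 13.7 to 14.0 FPKM to 9.89 to 11.8, and the part of these markers in the results was not tested. Most of the sum was CD68, with control means of 34.6, 52.5 and 13.8 FPKM in PANC-1, MIA PaCa-2 and PaTu 8988T. The libraries were of established cancer cell lines and not of tissue, so these changes are not read as changes in other cell types. In bulk RNA, a change in the mix of cells within a line and a change in RNA per cell cannot be told apart.

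**Figure D1:**
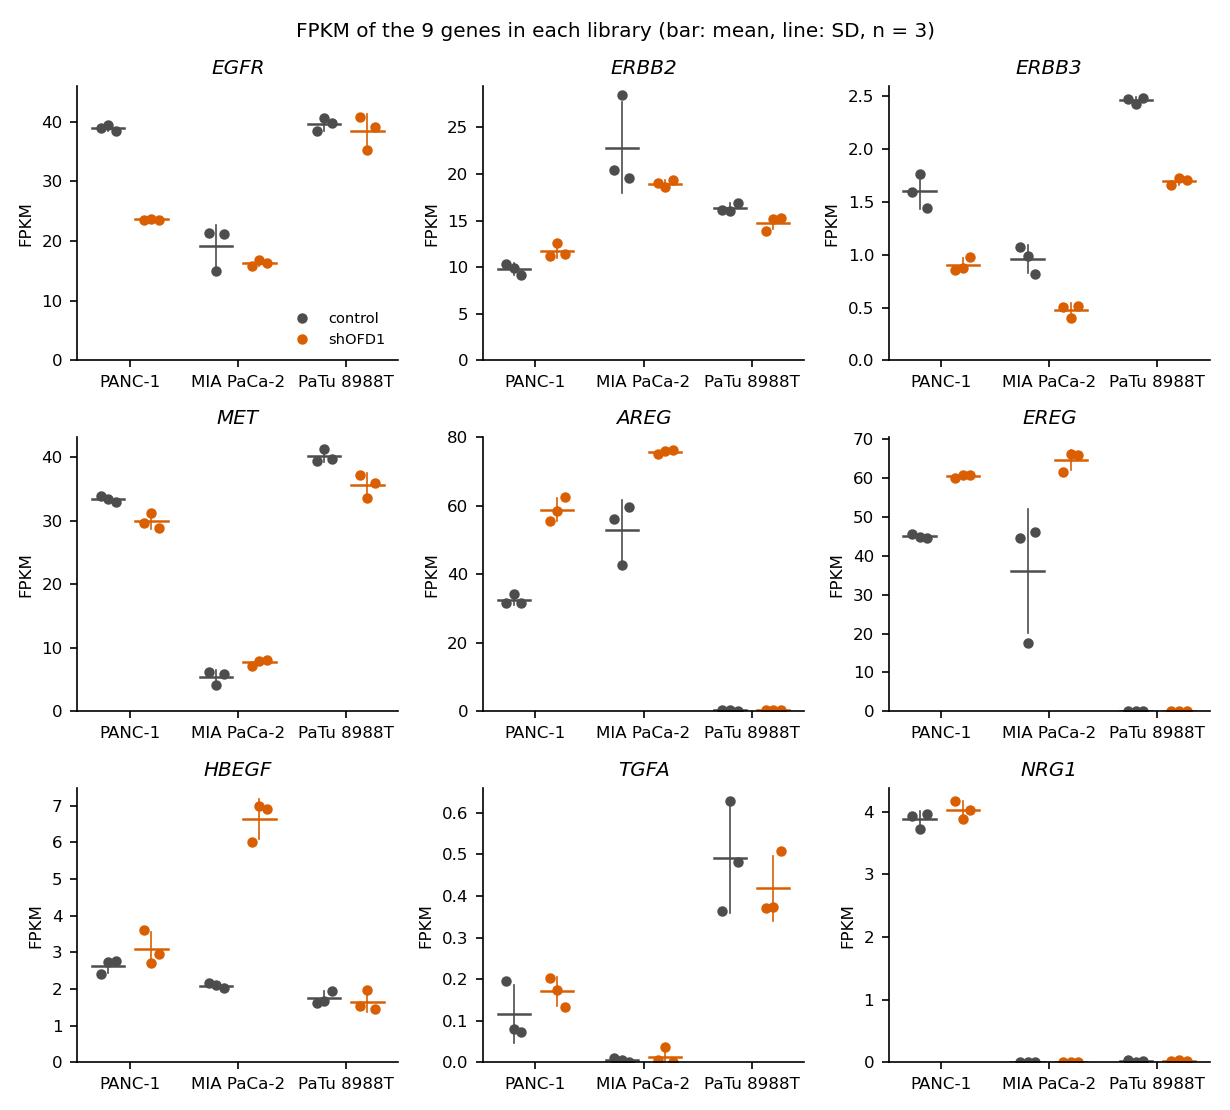
FPKM (vertical axes, linear from 0, a separate scale for each gene) of the 9 genes in each library of the 3 lines. Points are libraries (n = 3 in each group), horizontal bars are means and vertical lines are SDs. The groups did not overlap for EGFR in PANC-1, HBEGF in MIA PaCa-2, AREG and EREG in both, and ERBB2, ERBB3 and MET in all 3 lines. Of all genes tested, 75% did not overlap in PANC-1, 59.3% in MIA PaCa-2 and 51.9% in PaTu 8988T.

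Before any comparison, the members differed widely in level. FPKM scales reads by the length of the gene and the depth of the library, so genes of one library can be compared on it. In PANC-1 controls EREG was highest at 45.0 ± 0.55 FPKM (SD, n = 3), followed by EGFR at 39.0 ± 0.47, MET at 33.5 ± 0.50 and AREG at 32.4 ± 1.5, and the libraries of MET and AREG overlapped. ERBB2 (9.83 ± 0.61), NRG1 (3.88 ± 0.13), HBEGF (2.64 ± 0.19) and ERBB3 (1.60 ± 0.16) followed without overlap. In MIA PaCa-2 controls the order was AREG (52.8 ± 8.9 FPKM), EREG (36.0 ± 16), ERBB2 (22.8 ± 4.9) and EGFR (19.2 ± 3.6), and each of these overlapped with the next. MET (5.42 ± 1.1) and HBEGF (2.10 ± 0.074) lay below them. In PaTu 8988T controls MET (40.2 ± 1.0 FPKM) and EGFR (39.6 ± 1.2) were at the top and overlapped, ahead of ERBB2 (16.3 ± 0.48), ERBB3 (2.46 ± 0.029) and HBEGF (1.75 ± 0.18). The receptors EGFR, ERBB2 and MET and the ligand HBEGF thus averaged above 1 FPKM in the controls of every line. ERBB3 did so in PANC-1 and PaTu 8988T and was at 0.957 FPKM in MIA PaCa-2.

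The lines divided by the levels of the ligands AREG and EREG, and by whether NRG1 was detected. AREG stood at 31.5 to 34.2 FPKM in PANC-1 controls and 42.7 to 59.6 in MIA PaCa-2 controls, against 0.241 to 0.414 in PaTu 8988T controls. EREG had 0 to 4 reads per library in PaTu 8988T, and 3229 to 8294 in MIA PaCa-2 controls. NRG1, the ligand of ERBB3, was read in PANC-1 (3.73 to 3.97 FPKM in controls) and was not detectable at this depth in MIA PaCa-2, where 5 of 6 libraries had 0 reads and the other had 1. TGFA was low in all 3 lines, with 0.628 FPKM as its highest value in the 18 libraries. The gene lengths behind the FPKM values of AREG, EREG, HBEGF and TGFA were the same in the 3 lines (1234, 4615, 2358 and 4380 bases). For the other members PANC-1 was counted with other lengths than MIA PaCa-2 and PaTu 8988T (EGFR, 10869 against 11427 bases), so their levels are compared within a line alone.

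Knockdown and control libraries were compared in each line with limma on log2(FPKM + 0.1), over all genes that averaged 1 FPKM or more there. Fold changes are on this scale, and adjusted p-values (Benjamini-Hochberg) cover every gene tested in the line. The threshold was that of the study, an adjusted p below 0.05 with a fold change above 2 or below 0.5. In PANC-1 8 of 9 members were tested and 0 passed the threshold, which 6.6% of all 10902 genes tested did. By adjusted p alone 3 were higher and 3 lower, against 40.1% of all genes tested higher and 32.2% lower (72.3% in all), and the libraries of 6 members did not overlap between the groups, against 75% of all genes. In MIA PaCa-2 6 members were tested. Of these 1 passed the threshold, HBEGF, which was higher (7.75% of 10758 genes passed, 4.07% as higher). By adjusted p alone 3 were higher and 0 lower, against 18.7% and 21.7% of all genes (40.4% in all), and 5 members did not overlap, against 59.3%. In PaTu 8988T 5 members were tested and 0 passed the threshold, which 1% of 10698 genes did. By adjusted p alone 0 were higher and 3 lower, against 20.9% and 18.5% of all genes (39.4% in all), and 3 members did not overlap, against 51.9%. With 5 to 8 members tested, these shares are read as no result about the members as a set, and the account below is of single genes.

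The counts in MIA PaCa-2 rested on single libraries. Without control replicate 2 of that line the number of members with an adjusted p below 0.05 (limma) rose from 3 to 5, while the share of all genes rose from 40.4% to 75.1%, and 1 member passed the threshold, against 7.91% of all genes. Without any 1 of the 3 knockdown libraries the number fell to 1, and the share of all genes fell to between 22.7% and 23.1%. Without control replicate 3 a second member, EREG, passed the threshold, which 460 of 10758 genes passed as higher in that fit. In PaTu 8988T the number fell from 3 to 1 without control replicate 2, while the share of all genes fell from 39.4% to 28.0%. The plot of fold changes shows the intervals behind these counts.

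**Figure D2:**
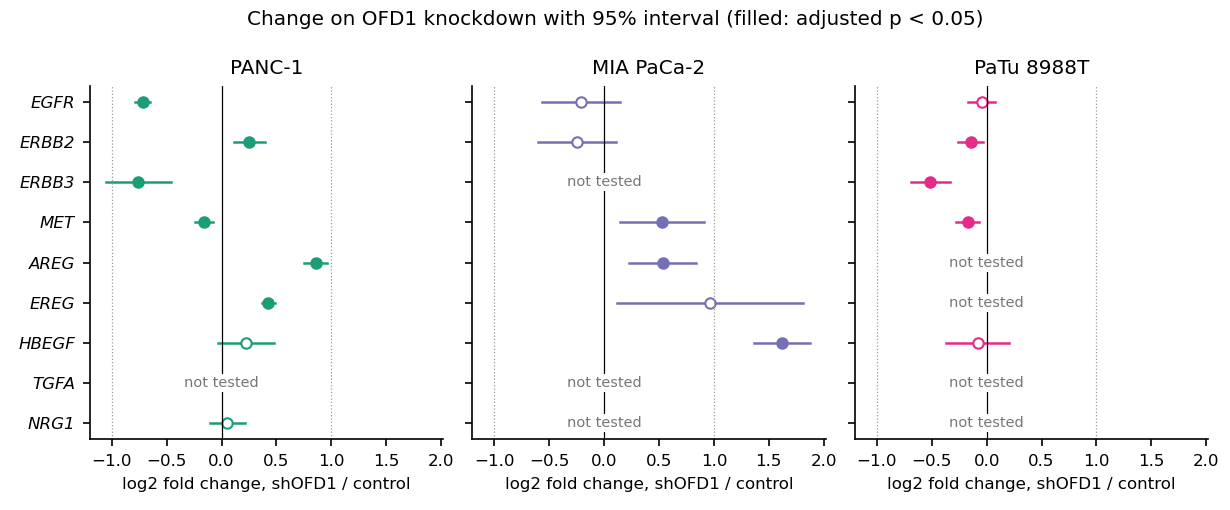
Log2 fold change of FPKM + 0.1, knockdown over control (horizontal axes), of each gene tested in each line. Points are limma estimates, bars are 95% intervals, filled points had an adjusted p below 0.05, and dotted lines mark a 2-fold change; HBEGF in MIA PaCa-2 is the one point beyond a dotted line that is filled.

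EGFR binds most of the ligands on the list. In PANC-1 its level was 38.9, 39.5 and 38.5 FPKM in control replicates 1 to 3 and 23.6, 23.8 and 23.6 FPKM after knockdown. Each group was tight and the groups lay far apart. This was a log2 fold change of -0.72 ± 0.031 (SE, adjusted p = 1.94e-08 with limma), at percentile 9.4 of all genes tested. In MIA PaCa-2 the controls gave 21.4, 14.98 and 21.1 FPKM and the knockdown libraries 15.9, 16.8 and 16.4. Replicate 2 of the controls fell below all 3 knockdown libraries, and the other controls lay above them. All 6 libraries gave a log2 fold change of -0.21 ± 0.15 (adjusted p = 0.294, limma), and without control replicate 2 it was -0.38 ± 0.037 (adjusted p = 2.77e-05). In PaTu 8988T EGFR was 38.4, 40.7 and 39.8 FPKM in controls and 40.8, 35.3 and 39.2 after knockdown, and the groups overlapped. Its log2 fold change there was -0.05 (95% interval -0.17 to 0.08, adjusted p = 0.533, limma), and it was 0.01 without knockdown replicate 2. The change in PANC-1 minus that in PaTu 8988T was -0.67 ± 0.065 on the log2 scale (adjusted p = 4.39e-07 for the interaction term in limma). EGFR lies on chr7:55019021-55211628 of GRCh38, plus strand.

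ERBB3, which has little kinase activity of its own and passes on signals as a partner of ERBB2, was lower in every knockdown library than in every control of the same line. Its controls in PANC-1 were 1.59, 1.76 and 1.44 FPKM, against 0.852, 0.874 and 0.981 after knockdown. In MIA PaCa-2 they were 1.07, 0.987 and 0.813 FPKM against 0.506, 0.401 and 0.517. In PaTu 8988T they were 2.47, 2.43 and 2.48 FPKM against 1.65, 1.73 and 1.70. The direction was thus the same at 3 low levels of expression. Its log2 fold change was -0.76 ± 0.13 in PANC-1 (adjusted p = 0.000518) and -0.51 ± 0.078 in PaTu 8988T (adjusted p = 0.000956, both limma), at percentile 4.94 of all genes tested in the latter. In MIA PaCa-2 ERBB3 was under the filter of 1 FPKM. Fitted there without a filter it gave -0.88 ± 0.18 (adjusted p = 0.0211 over 20604 genes, limma), and -0.85 ± 0.18 without control replicate 2 (adjusted p = 0.0238), from 194 to 256 reads per control library and 93 to 121 per knockdown library. The changes in PANC-1 and PaTu 8988T differed by -0.24 on the log2 scale (95% interval -0.53 to 0.04, adjusted p = 0.128). ERBB3 lies on chr12:56076799-56103505, and AC034102.2, listed as protein-coding in the annotation, overlaps it on the same strand.

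ERBB2, the partner without a ligand, moved little. In PANC-1 it was 10.4, 9.94 and 9.16 FPKM in controls and 11.2, 12.6 and 11.4 after knockdown, with no overlap. Its log2 fold change was 0.25 ± 0.064 (adjusted p = 0.00513, limma). In MIA PaCa-2 the controls were 20.5, 28.5 and 19.6 FPKM and the knockdown libraries 19.0, 18.6 and 19.3. The groups did not overlap, by a small margin (19.6 against 19.3), control replicate 2 was far above the rest, and the log2 fold change was -0.25 ± 0.15 with it (adjusted p = 0.229) and -0.08 ± 0.037 without it (adjusted p = 0.0916, limma). In PaTu 8988T ERBB2 went from 16.1, 16.03 and 16.9 FPKM to 13.9, 15.1 and 15.3, a log2 fold change of -0.15 ± 0.050 (adjusted p = 0.0444, limma) that missed the adjusted p threshold without any 1 of the 6 libraries other than knockdown replicate 2 (adjusted p = 0.062 to 0.147). The rise in PANC-1 and the change in PaTu 8988T differed by 0.40 ± 0.084 on the log2 scale (adjusted p = 0.00088 for the interaction term). ERBB2 (chr17:39687914-39730426, plus strand) overlaps MIEN1 on the other strand, which reached 52.5 FPKM, and whether counting used strand is not given in the sources used here, so reads of the 2 genes could not be told apart where they overlap. The fourth receptor of the family, ERBB4, which is no member of the list, was at 0.149 FPKM or less in all 18 libraries.

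MET moved in opposite directions between lines. In PANC-1 it was 34.0, 33.4 and 33.0 FPKM in controls and 29.7, 31.2 and 28.9 after knockdown, and in PaTu 8988T it was 39.5, 41.3 and 39.8 against 37.3, 33.7 and 35.9. Knockdown libraries lay below the controls in both lines. The log2 fold changes were -0.16 ± 0.037 (adjusted p = 0.00303) and -0.17 ± 0.046 (adjusted p = 0.0145, both limma), and the latter had an adjusted p of 0.066 without PaTu 8988T control replicate 2. In MIA PaCa-2 controls gave 6.15, 4.20 and 5.91 FPKM and knockdown libraries 7.21, 7.97 and 8.13, all above the controls. This was a log2 fold change of 0.53 ± 0.16 (adjusted p = 0.0388, limma). It was 0.36 ± 0.063 without control replicate 2 (adjusted p = 0.00091), and leaving out control replicate 3 or any knockdown library raised the adjusted p to between 0.0516 and 0.129. On the log2 scale the change in PANC-1 minus that in MIA PaCa-2 was -0.69 ± 0.17 (adjusted p = 0.0087), and MIA PaCa-2 minus PaTu 8988T gave 0.70 ± 0.17 (adjusted p = 0.00611). Without MIA PaCa-2 control replicate 2 these differences were -0.52 and 0.53 (adjusted p = 3.42e-05 and 3.69e-05, limma). MET lies on chr7:116672390-116798386, plus strand.

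AREG and EREG encode 2 ligands of EGFR from neighbouring genes on chromosome 4, EREG at chr4:74365143-74388751 and AREG at chr4:74445134-74455009, both on the plus strand. The annotation puts 56382 bases between them and no protein-coding gene. Both rose in PANC-1, and the 150 bases before their start sites are shown with those of HBEGF and EGFR, the members with the clearest changes in one line, from RefSeq (GRCh38.p14). Such windows were at hand for 7 of the 9 members, all but NRG1 and ERBB3. Capitals mark matches, on either strand, to the TATA box (TATAAA), the cAMP response element (TGACGTCA), the first bases of this element (TGACG) and the GC box (GGGCGG). Also searched were TGANTCA (AP-1), TGATGCAA (an ATF4-CHOP core), TTTNNCGC (E2F) and TTTGAA (CHR), which had no match in these 4 windows. For EGFR the window of the upstream of 2 RefSeq start sites is shown.
AREG (chr4:74444986-74445135, plus strand): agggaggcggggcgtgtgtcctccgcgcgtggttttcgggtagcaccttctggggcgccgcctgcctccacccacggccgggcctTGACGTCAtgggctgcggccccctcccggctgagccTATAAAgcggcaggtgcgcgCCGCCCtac
EREG (chr4:74364995-74365144, plus strand): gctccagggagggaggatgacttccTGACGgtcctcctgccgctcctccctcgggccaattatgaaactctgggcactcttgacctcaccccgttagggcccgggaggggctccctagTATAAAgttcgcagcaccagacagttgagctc
HBEGF (chr5:140346604-140346753, minus strand): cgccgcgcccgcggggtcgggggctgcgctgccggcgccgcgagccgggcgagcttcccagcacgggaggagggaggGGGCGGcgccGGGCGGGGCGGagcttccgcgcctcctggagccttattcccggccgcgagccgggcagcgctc
EGFR (chr7:55018867-55019016, plus strand): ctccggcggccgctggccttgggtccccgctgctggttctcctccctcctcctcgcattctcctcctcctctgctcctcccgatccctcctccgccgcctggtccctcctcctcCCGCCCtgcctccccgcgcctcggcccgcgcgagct

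The windows of AREG and EREG each held 1 TATA box, which starts 29 and 32 bases before the start site. TATAAA was in 6.71% of the 35116 windows of this length in the table. AREG also held 1 full cAMP response element (1.4% of windows), and EREG 1 TGACG (15.4% of windows, full elements included). HBEGF held 3 GC boxes, of which the last 2 overlap by their letters, and the EGFR window shown held 1, and 36.8% of all windows held a GC box. The window of the other EGFR start site (chr7:55109689-55109838, plus strand) differed, with 2 TATA boxes, 1 AP-1 match (4.17% of windows), 1 CHR match (7.33% of windows) and no GC box. A match is a match of letters and says nothing of binding in these cells.

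AREG rose in both lines that expressed it. In PANC-1 it was 31.5, 34.2 and 31.6 FPKM in controls and 55.7, 58.6 and 62.5 after knockdown, and in MIA PaCa-2 56.1, 42.7 and 59.6 against 75.0, 75.9 and 76.2. Every knockdown library lay above every control of its line. It rose by a log2 fold change of 0.86 ± 0.048 in PANC-1 (adjusted p = 1.21e-07), at percentile 97.1 of genes tested, and 0.53 ± 0.13 in MIA PaCa-2 (adjusted p = 0.0172, both limma). In MIA PaCa-2 it was 0.39 ± 0.030 without control replicate 2 (adjusted p = 6.57e-06), and without any 1 of the knockdown libraries the adjusted p was 0.0623 to 0.0677. The rise in PANC-1 exceeded that in MIA PaCa-2 by 0.33 on the log2 scale (adjusted p = 0.105), and by 0.47 without MIA PaCa-2 control replicate 2 (adjusted p = 3.28e-05, limma). In PaTu 8988T, at 0.307, 0.414 and 0.241 FPKM in controls and 0.483, 0.280 and 0.468 after knockdown, the groups overlapped and the gene was below the filter.

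EREG followed AREG in direction. Its PANC-1 controls were 45.6, 44.7 and 44.6 FPKM, and its knockdown libraries 59.9, 60.8 and 60.7. The groups were each within about 1 FPKM and lay apart. Its log2 fold change was 0.43 ± 0.027 (adjusted p = 3.11e-07, limma). In MIA PaCa-2 it was 44.4, 17.6 and 46.01 FPKM in controls and 61.6, 66.1 and 65.9 after knockdown. The knockdown libraries were all higher, but control replicate 2 was far below its group. All libraries together gave a log2 fold change of 0.96 ± 0.36 (adjusted p = 0.0697), and leaving it out gave 0.51 ± 0.037 (adjusted p = 4.29e-06, limma). Between PANC-1 and MIA PaCa-2 the log2 fold changes differed by -0.54 (95% interval -1.38 to 0.31, adjusted p = 0.304), and by -0.08 (adjusted p = 0.117) without that library. In PaTu 8988T EREG had at most 4 reads in a library.

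HBEGF, which binds heparan sulphate and the receptors EGFR and ERBB4, was the member with the largest fold change of those tested in the 3 lines. In MIA PaCa-2 it was 2.17, 2.10 and 2.02 FPKM in controls and 6.02, 6.998 and 6.92 after knockdown, from 186 to 200 and 551 to 627 reads per library. The controls were tight, replicate 2 included, and the groups lay far apart. The log2 fold change was 1.62 ± 0.11 (adjusted p = 0.000199, limma), a 3.07-fold change, ranked 103 by p among 10758 genes and at percentile 99.1 of log2 fold changes. Without control replicate 2 it was 1.62 ± 0.081 (adjusted p = 4.97e-07). In PANC-1 the libraries overlapped, with 2.41, 2.73 and 2.76 FPKM in controls and 3.62, 2.71 and 2.97 after knockdown. Its log2 fold change there was 0.22 (95% interval -0.04 to 0.47, adjusted p = 0.111, limma), and 0.31 without knockdown replicate 2 (adjusted p = 0.0409). In PaTu 8988T the values were 1.62, 1.68 and 1.96 FPKM against 1.54, 1.98 and 1.46, which also overlapped, and the log2 fold change was -0.08 (95% interval -0.37 to 0.21, adjusted p = 0.637). By the interaction terms in limma, the change in PANC-1 minus that in MIA PaCa-2 was -1.40 ± 0.16 (adjusted p = 7.78e-05), and MIA PaCa-2 minus PaTu 8988T gave 1.70 ± 0.17 (adjusted p = 1.79e-05). Both differences were the same to 2 decimals without MIA PaCa-2 control replicate 2 (adjusted p = 4.23e-06 and 9.27e-07). HBEGF lies on chr5:140332843-140346631, minus strand.

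NRG1 and TGFA gave little. NRG1 in PANC-1 was 3.93, 3.73 and 3.97 FPKM in controls and 4.17, 3.88 and 4.03 after knockdown, and the groups overlapped. Its log2 fold change was 0.05 (95% interval -0.10 to 0.21, adjusted p = 0.51, limma). In PaTu 8988T it had 10 to 23 reads per library. TGFA was below the filter in every line, at 0.365, 0.628 and 0.481 FPKM in PaTu 8988T controls and 0.371, 0.375 and 0.509 after knockdown, which overlapped. In PANC-1 TGFA was 0.0730 to 0.197 FPKM in controls and 0.133 to 0.204 after knockdown.

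**Figure D3:**
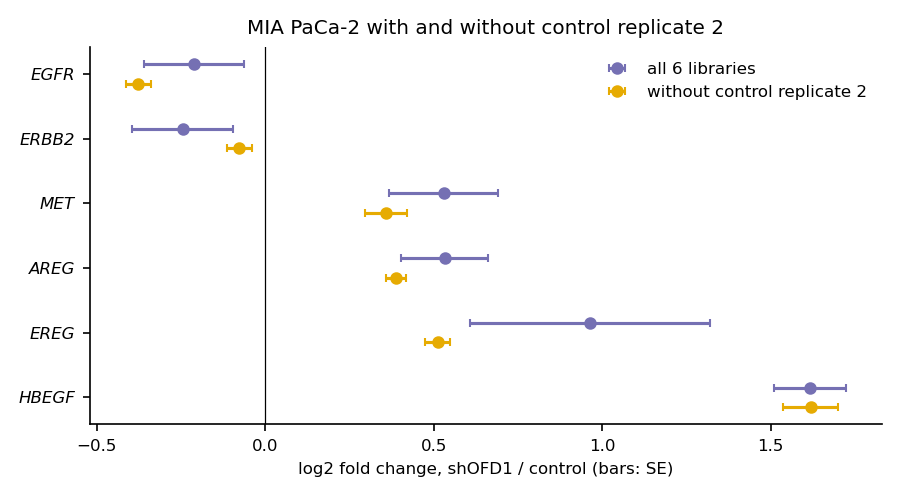
Log2 fold change of FPKM + 0.1, knockdown over control, of the 6 genes tested in MIA PaCa-2 (horizontal axis; bars are SEs), with all 6 libraries and without control replicate 2. HBEGF stayed at 1.62, EREG moved from 0.96 to 0.51, and EGFR moved from -0.21 to -0.38.

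Between pairs of lines the change of a member on knockdown was tested as an interaction term in limma. For PANC-1 against MIA PaCa-2, 4 of 6 members tested in both differed (EGFR, ERBB2, HBEGF and MET), against 35.4% of all 9553 genes. For PANC-1 against PaTu 8988T, 2 of 5 differed (EGFR and ERBB2), against 56.7% of genes. For MIA PaCa-2 against PaTu 8988T, 2 of 4 differed (HBEGF and MET), against 45.7%. The differences of EGFR (-0.51, adjusted p = 0.0262) and ERBB2 (0.50, adjusted p = 0.0422) between PANC-1 and MIA PaCa-2 were the least firm, since both missed the adjusted p threshold without any 1 of the 6 PANC-1 libraries, or without MIA PaCa-2 knockdown replicate 2 or 3, and ERBB2 also without knockdown replicate 1 there. Without PANC-1 control replicate 1, for example, the adjusted p was 0.0534 for EGFR and 0.0568 for ERBB2 (limma). Without MIA PaCa-2 control replicate 2 they were -0.34 and 0.33 (adjusted p = 2.57e-05 and 0.00311).

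The summed level of the 4 EGF-type ligands, AREG, EREG, HBEGF and TGFA, was set against that of EGFR in each library. In PANC-1 the sum of ligand FPKM over EGFR FPKM was 2.06 ± 0.012 (SD, n = 3) in controls and 5.18 ± 0.15 after knockdown. In MIA PaCa-2 it was 4.69 ± 0.48 in controls, with 4.16 in control replicate 2 as the lowest, and 8.99 ± 0.099 after knockdown. The groups did not overlap in either line. In PaTu 8988T the ratio was 0.0648 ± 0.0045 in controls and 0.0653 ± 0.0083 after knockdown, and the groups overlapped. The ratio of MET to EGFR went from 0.859 ± 0.013 to 1.27 ± 0.045 in PANC-1, from 0.283 ± 0.0046 to 0.475 ± 0.021 in MIA PaCa-2 and from 1.01 ± 0.014 to 0.928 ± 0.022 in PaTu 8988T. In PANC-1 MET itself fell (log2 fold change -0.16) and EGFR fell more (-0.72). In MIA PaCa-2 MET rose (0.53, and 0.36 without control replicate 2). The smallest two-sided p of an exact permutation test at 3 against 3 is 0.1, so no p is given for these ratios, which are of mRNA and not of protein.

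The other genes of the pathway were taken from lists, described by counts at an adjusted p below 0.05 (limma). These are to be read beside the shares of all genes tested, 40.1% higher and 32.2% lower in PANC-1, 18.7% and 21.7% in MIA PaCa-2 (35.1% and 40% without control replicate 2) and 20.9% and 18.5% in PaTu 8988T. Past the threshold, in either direction, were 6.6% of all genes tested in PANC-1, 7.75% in MIA PaCa-2 and 1% in PaTu 8988T. Of 8 other ligands, 2 rose and 1 fell of 3 tested in PANC-1, 0 of 1 passed in MIA PaCa-2, and 0 were tested in PaTu 8988T. In PANC-1 MST1, the ligand of the MET relative MST1R, rose from a mean of 1.78 to 4.10 FPKM (log2 fold change 1.18 ± 0.15, adjusted p = 5.65e-05, limma). HGF, the ligand of MET, rose there from 12.7 to 24.9 FPKM (0.97 ± 0.052, adjusted p = 9.26e-08), just short of 2-fold, while MET itself fell slightly. The third, the ERBB ligand NRG2, fell from 2.12 to 1.30 FPKM (-0.67 ± 0.11, adjusted p = 0.000355). HGF and NRG2 were named after their values were seen.

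The next list held 10 genes that cut or traffic the ligands, with the protease inhibitor TIMP3 among them. In PANC-1 6 fell and 2 rose of 9 tested, and TIMP3 was 1 of the 2. In MIA PaCa-2 2 fell and 1 rose of 8 (4 and 1 without control replicate 2), and in PaTu 8988T 6 fell and 0 rose of 8. Of all genes, 32.2%, 21.7% and 18.5% were lower in the 3 lines, so the count in MIA PaCa-2 was near that of all genes. Their median log2 fold changes were -0.54, -0.36 and -0.19, against 0.06, -0.03 and 0.03 over all genes tested. Without control replicate 2 the median in MIA PaCa-2 was -0.19, against -0.03 over all genes. In PANC-1 3 genes of the 9 tested passed the threshold, against 6.6% of all genes. ADAM10, a protease that sheds surface proteins, fell from 23.6 to 8.77 FPKM (-1.42 ± 0.045, adjusted p = 2.68e-09, limma). RHBDF2, which carries ADAM17 to the cell surface, fell from 9.17 to 4.27 FPKM (-1.09 ± 0.082, adjusted p = 1.19e-06). TIMP3, an inhibitor of ADAM17, rose from 1.05 to 3.26 FPKM (1.56 ± 0.14, adjusted p = 4.57e-06). In PaTu 8988T ADAM10 (-0.37 ± 0.060, adjusted p = 0.00134) and RHBDF2 (-0.96 ± 0.080, adjusted p = 2.87e-05) were lower as well. In MIA PaCa-2, with all 6 libraries, ADAM10 was at -0.47 (adjusted p = 0.111) and RHBDF2 at -0.58 (adjusted p = 0.061, all limma). ADAM17 itself was named after its values were seen. It fell in PANC-1 (-0.54 ± 0.046, adjusted p = 2.68e-06) and PaTu 8988T (-0.49 ± 0.062, adjusted p = 0.000343, both limma). In MIA PaCa-2 it rose (0.52 ± 0.12 with all 6 libraries, adjusted p = 0.0168, limma). AREG and EREG mRNA thus rose in PANC-1 beside lower ADAM10, ADAM17 and RHBDF2 mRNA. ADAM10, ADAM17 and RHBDF2 were lower in PaTu 8988T too, where AREG and EREG were below the filter.

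Of 22 brakes and endocytic factors of the receptors, 9 rose and 6 fell of 20 tested in PANC-1, 4 rose and 2 fell of 18 in MIA PaCa-2 (6 and 6 without control replicate 2), and 1 rose and 4 fell of 20 in PaTu 8988T. Of all genes tested, 40.1% rose and 32.2% fell in PANC-1, so the counts there were near those of all genes. The shares were 18.7% and 21.7% in MIA PaCa-2 (35.1% and 40% without control replicate 2), and 20.9% and 18.5% in PaTu 8988T. The one brake past the threshold was CBLB, a ubiquitin ligase of activated receptors, in PANC-1 (2.14 to 4.54 FPKM, 1.05 ± 0.080, adjusted p = 1.24e-06, limma). ERRFI1, an inhibitor that binds EGFR and is itself induced by its signal, was named after its values were seen. It rose from 110 to 171 FPKM in PANC-1 (0.64 ± 0.021, adjusted p = 3.15e-09) and from 88.4 to 173 FPKM in MIA PaCa-2 (0.99 ± 0.13, adjusted p = 0.00202, and 0.83 without control replicate 2). In PaTu 8988T it fell from 22.8 to 15.6 FPKM (-0.55 ± 0.054, adjusted p = 7.85e-05, limma). SPRY4, another feedback inhibitor of the list and also named after its values were seen, fell in PANC-1 (-0.63 ± 0.050, adjusted p = 1.79e-06) and in PaTu 8988T (-0.49 ± 0.043, adjusted p = 3.72e-05) and rose in MIA PaCa-2 (0.76 ± 0.067, adjusted p = 0.000493, and 0.77 without control replicate 2). Of 20 adaptors, 9 rose and 5 fell of 19 in PANC-1, where GAB2 passed the threshold as lower (5.41 to 2.58 FPKM, -1.04 ± 0.093, adjusted p = 3.82e-06), 3 rose and 3 fell of 17 in MIA PaCa-2 (8 and 5 without control replicate 2), and 2 rose and 4 fell of 18 in PaTu 8988T.

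Of 11 genes that govern HGF activation or act with MET, 4 fell and 1 rose of 7 tested in PANC-1, 5 fell of 5 in PaTu 8988T, and 2 rose and 0 fell of 3 in MIA PaCa-2 (2 and 1 without control replicate 2). The genes that fell in both PANC-1 and PaTu 8988T include SPINT2, an inhibitor of HGF activation (-0.34 and -0.21, adjusted p = 7.94e-08 and 0.00897), and the one that rose in PANC-1 was the protease TMPRSS2 (0.39, adjusted p = 0.00855, limma), both named after their values were seen. CD44, a coreceptor of MET in some cells, fell in PANC-1 from 123 to 47.1 FPKM (-1.39 ± 0.025, adjusted p = 8.96e-11, limma), and MST1R from 5.47 to 2.61 FPKM (-1.05 ± 0.097, adjusted p = 5.19e-06). ITGB4, an integrin subunit that can bind MET, rose in MIA PaCa-2 from 0.918 to 2.92 FPKM (1.66 ± 0.29, adjusted p = 0.00555, and 2.01 without control replicate 2) and fell in PaTu 8988T from 29.9 to 13.6 FPKM (-1.13 ± 0.050, adjusted p = 1.04e-06, limma). Of 49 other receptor tyrosine kinases, 13 fell and 3 rose of 20 tested in PANC-1, 4 fell and 6 rose of 19 in MIA PaCa-2 (6 and 10 without control replicate 2), and 11 fell and 1 rose of 15 in PaTu 8988T. Of all genes tested, 32.2% fell and 40.1% rose in PANC-1, and 18.5% fell and 20.9% rose in PaTu 8988T. In MIA PaCa-2 21.7% fell and 18.7% rose (40% and 35.1% without control replicate 2). The lower count in MIA PaCa-2 was near the 21.7% of all genes. Past the threshold were 6 of 20 in PANC-1, all lower, against 6.6% of all genes higher or lower. Of these AXL (42.2 to 17.99 FPKM), DDR1 (42.3 to 17.9 FPKM) and EPHB2 (11.6 to 5.17 FPKM) had the smallest p. EGFR and ERBB3 were thus not alone among receptors of this kind in falling in PANC-1. In MIA PaCa-2 ROR1 passed as lower (-1.40 ± 0.15, adjusted p = 0.000884) and AATK as higher (1.37 ± 0.27, adjusted p = 0.00779, limma). Without control replicate 2 they were -1.48 and 1.67. ROR1 was also 1 of the 6 in PANC-1 (-1.22 ± 0.11, adjusted p = 4.44e-06, limma). DDR1 fell in MIA PaCa-2 too (-0.59 ± 0.14 with all 6 libraries, adjusted p = 0.0155). In PaTu 8988T DDR1 was at -0.66 ± 0.056 (adjusted p = 2.99e-05, both limma). AXL did not fall in these lines (0.35 with all 6 libraries in MIA PaCa-2 and 0.07 in PaTu 8988T).

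**Figure D4:**
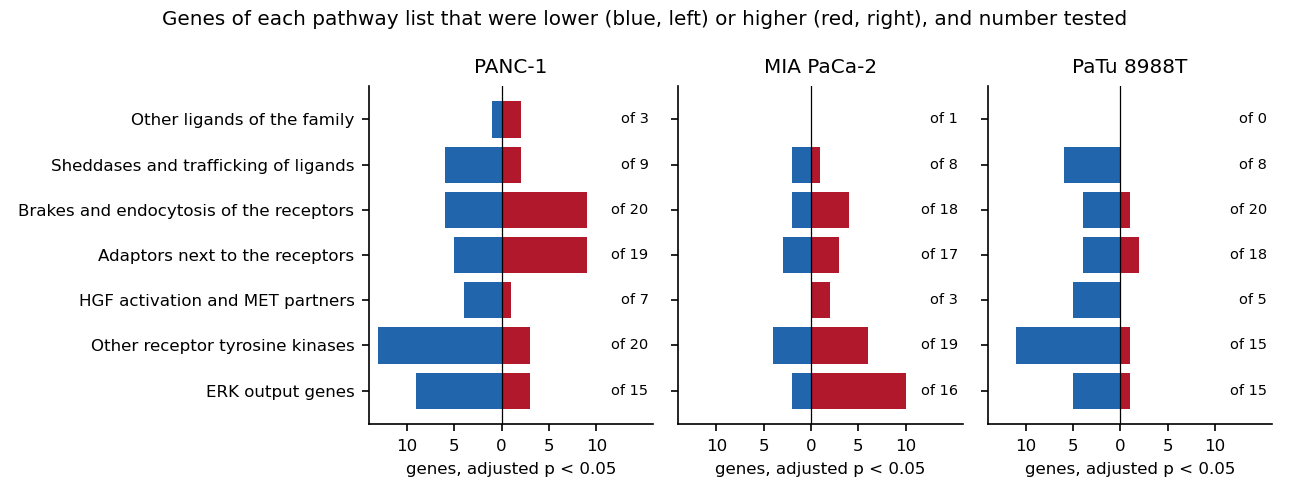
Number of genes of each pathway list with an adjusted p below 0.05 (limma), lower on knockdown to the left in blue and higher to the right in red, with the number tested at the right edge. Of the ERK output genes, 10 of 16 were higher in MIA PaCa-2, and 9 of 15 were lower in PANC-1.

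Of 17 genes that ERK signalling is known to induce, 10 rose and 2 fell of 16 tested in MIA PaCa-2 (13 and 2 without control replicate 2), 3 rose and 9 fell of 15 in PANC-1, and 1 rose and 5 fell of 15 in PaTu 8988T. Of all genes tested, 18.7% rose and 21.7% fell in MIA PaCa-2 (35.1% and 40% without control replicate 2). The shares were 40.1% and 32.2% in PANC-1, and 20.9% and 18.5% in PaTu 8988T. The median log2 fold changes of the list were 0.54 in MIA PaCa-2 (0.52 without control replicate 2), -0.24 in PANC-1 and -0.09 in PaTu 8988T. In MIA PaCa-2 the phosphatases DUSP5 (7.08 to 23.4 FPKM, 1.71 ± 0.076, adjusted p = 0.000156) and DUSP6 (1.24 to 2.81 FPKM, 1.12 ± 0.11, adjusted p = 0.000683) and the transcription factors EGR1 (10.3 to 30.0 FPKM, 1.54 ± 0.087, adjusted p = 0.000168) and FOS (1.47 to 3.34 FPKM, 1.13 ± 0.21, adjusted p = 0.00662) passed the threshold in limma. FOS completes this count of 4, against 4.07% of all genes tested that passed as higher, and was named after its values were seen. Their values without control replicate 2 were 1.72 for DUSP5, 1.09 for DUSP6, 1.59 for EGR1 and 1.27 for FOS. In PANC-1 DUSP5 also passed as higher (15.8 to 39.5 FPKM, 1.32 ± 0.060, adjusted p = 2.73e-08). FOSL1, another AP-1 subunit, fell from 38.3 to 10.8 FPKM (-1.81 ± 0.073, adjusted p = 1.15e-08), and the ETS factor ETV4 fell from 10.8 to 5.18 FPKM (-1.05 ± 0.091, adjusted p = 3.15e-06). In PaTu 8988T 0 of the 15 passed the threshold. Some genes of the list moved alike in the 3 lines. FOSL1 also fell in MIA PaCa-2 (-0.27, adjusted p = 0.0383, and -0.20 without control replicate 2) and in PaTu 8988T (-0.76, adjusted p = 5.87e-06). CCND1, which encodes cyclin D1 and was named after its values were seen, fell as well, with log2 fold changes of -0.87 in PANC-1, -0.27 in MIA PaCa-2 (-0.28 without control replicate 2) and -0.20 in PaTu 8988T (adjusted p = 5.82e-09, 0.0196 and 0.00207, limma). The difference of the list between lines was not tested. HBEGF is itself known to be induced by ERK signalling, and it was left out of this list as a member.

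The genes with the pattern most like HBEGF were sought by the root mean square difference of log2(FPKM + 0.1), taken relative to the control mean of each line, over the 18 libraries and 9083 genes tested in all 3 lines. The nearest were WIPI1, an autophagy gene (0.16), BABAM2, a subunit of deubiquitinase complexes (0.195), and EGR1 (0.20), against a median of 0.73 over genes. Their log2 fold changes in MIA PaCa-2 were 1.46, 1.41 and 1.54 (1.40, 1.37 and 1.59 without control replicate 2). In PANC-1 they were 0.21, 0.49 and -0.14, and in PaTu 8988T 0.03, -0.22 and -0.09. The measure weighs large changes most, and that of HBEGF was in MIA PaCa-2.

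**Figure D5:**
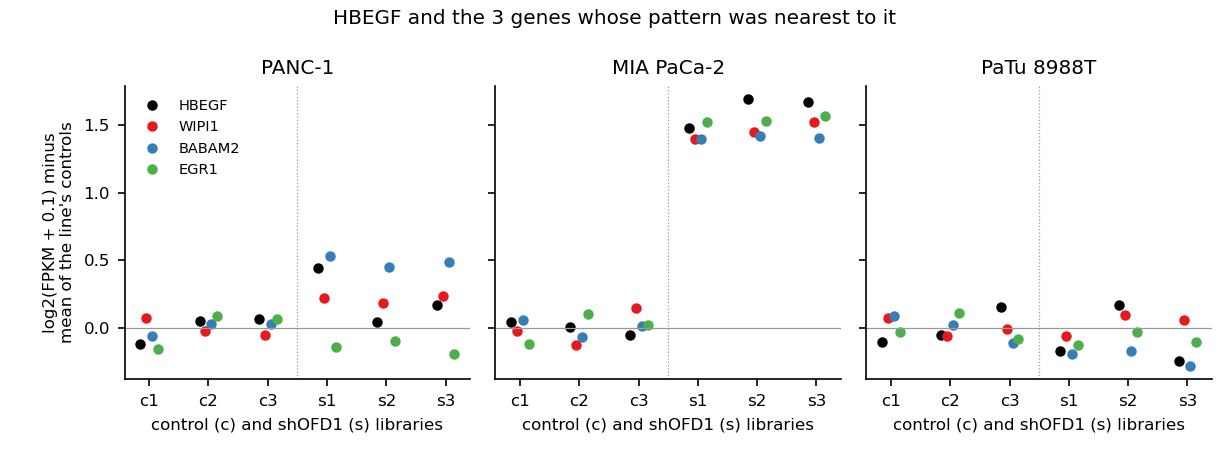
Log2(FPKM + 0.1) minus the mean of the controls of the same line (vertical axis) in each control (c) and knockdown (s) library, for HBEGF and the 3 nearest genes. In MIA PaCa-2 the knockdown libraries of all 4 genes lay between 1.40 and 1.69 and the controls near 0.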

How the data were processed

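RNA was sequenced from 18 libraries of 3 cell lines. According to the methods of the study, reads were mapped with HISAT2, counted with HTSeq-count and tested with a count model; the annotation, the use of strand and the role of the builds named in the labels (hg38 among them) are not given in the sources used here. The labels name RNeasy and SMARTer kits and the methods TRIzol and another kit, so the preparation is uncertain. The authors deposited FPKM values in one table. Per line, all genes above 0 had values that were whole multiples (within 0.001 reads) of the value of 1 read, which gave the reads per gene and library quoted as depth. FPKM values were used as deposited in every test.

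Groups followed sample titles. Within a line, genes with a mean of at least 1 FPKM over 6 libraries were fitted as log2(FPKM + 0.1) in R 4.3.3 with limma 3.58.1 (lmFit, eBayes with trend; tables read by data.table, version 1.17.8), adjusting p over all genes by Benjamini-Hochberg. Differences between lines were interaction terms in fits of 12 libraries. The fits were tested on simulated data. The members and the gene lists were chosen with earlier results of these data known, so counts over lists are descriptions. Named were all members, OFD1, up to 3 genes per list and line past the threshold with the smallest p, and the 3 genes nearest to a member past the threshold. HGF, NRG2, ADAM17, ERRFI1, SPRY4, SPINT2, TMPRSS2, FOS, CCND1 and ERBB4 were added after values were seen. The promoter motifs were chosen after the data were seen. Gene positions came from GENCODE v29 (GRCh38).

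Alternatives were pseudocounts of 1 and 0.01, no filter and a filter of 5 FPKM, quantile normalization, a median shift of each library, eBayes without trend, a replicate block and leaving out each library. The pathway lists, the genes named from them and ERBB3 without MIA PaCa-2 control replicate 2 were added after seeing the data.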

Additional observations from a re-analysis of the deposited data

Results flagged for a closer look

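For 8 pairs of a member and 2 lines the change on knockdown differed between the lines, by an interaction term in limma over all genes tested in both. On the log2 scale EGFR changed by -0.51 ± 0.16 (SE) in PANC-1 relative to MIA PaCa-2 (adjusted p = 0.0262) and by -0.67 ± 0.065 relative to PaTu 8988T (adjusted p = 4.39e-07). ERBB2 changed by 0.50 ± 0.17 in PANC-1 relative to MIA PaCa-2 (adjusted p = 0.0422) and by 0.40 ± 0.084 relative to PaTu 8988T (adjusted p = 0.00088). HBEGF changed by -1.40 ± 0.16 in PANC-1 relative to MIA PaCa-2 (adjusted p = 7.78e-05) and by 1.70 ± 0.17 in MIA PaCa-2 relative to PaTu 8988T (adjusted p = 1.79e-05). MET changed by -0.69 ± 0.17 in PANC-1 relative to MIA PaCa-2 (adjusted p = 0.0087) and by 0.70 ± 0.17 in MIA PaCa-2 relative to PaTu 8988T (adjusted p = 0.00611). Differences of this kind were found for 35.4% to 56.7% of all genes, so their number among the members is no result about them.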

How the results depend on the processing

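Of the alternatives to counts of members, 126 left the count within 1.5 times and 18 did not; of those to single members, 499 kept direction and side of the adjusted p threshold, 40 lost and 9 gained it, and 8 changed sign (limma). In MIA PaCa-2 the number past the threshold was 0 with a filter of 5 FPKM, under which HBEGF was not tested, and 2 with quantile normalization. Leaving out 1 library gave 1 to 2 members past the threshold and 1 to 5 by adjusted p in MIA PaCa-2, 1 to 3 by adjusted p in PaTu 8988T, and 2 to 5 members differing between PANC-1 and MIA PaCa-2. In the same fits the share of all genes by adjusted p ran from 22.7% to 75.1% in MIA PaCa-2. It ran from 28.0% to 42.2% in PaTu 8988T. Between MIA PaCa-2 and PaTu 8988T 1 member differed with the 5 FPKM filter, which left HBEGF out. Correlations of deviations from the group means ran from -0.11 to 0.13 between control and knockdown libraries of the same replicate number. Between libraries of different numbers they ran from -0.23 to 0.23. No pairing by number was seen, but 3 libraries per group cannot exclude it. With the replicate block 2 members, HBEGF and MET, differed between PANC-1 and MIA PaCa-2 in place of 4, and adjusted p rose to 0.0641 for MET in MIA PaCa-2 and 0.0522 for ERBB2 in PaTu 8988T. The 8 sign changes were of values that did not pass the threshold. In PaTu 8988T HBEGF was 0.00856 with quantile normalization, and EGFR was -0.0905 to 0.0134 when 1 library was left out, positive without knockdown replicate 2. The PANC-1 minus PaTu 8988T difference of MET was -0.00641 with the median shift and -0.0262 to 0.0471 when 1 library was left out, negative without knockdown replicate 2 of either line or PaTu 8988T control replicate 2. The MIA PaCa-2 minus PaTu 8988T difference of ERBB2 was 0.0395 with quantile normalization and -0.199 to 0.0698 when 1 library was left out, positive without MIA PaCa-2 control replicate 2. Where no construction of the alternative shows it, the cause was not tested. FPKM values give no error of their own, and members below 1 FPKM rest on few reads (TGFA, 11 to 31 per PANC-1 control library).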
